A study of Mus musculus with 2 samples.

Results

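The genes described here encode subunits of eIF3, the largest of the factors that start translation. They were chosen by name: every probe whose symbol in the platform annotation is Eif3s and a number, the older naming, or Eif3 and a letter from a to m was taken. This gave 13 probes of 11 genes, out of 23473 probes and 16390 genes with a symbol on the array. The family was picked on measured values, because Eif3j1 and Eif3e lay high under caloric restriction; those values are therefore given as a description. Of the 11 genes, 10 had 1 probe and Eif3j1 had 3, and the brightest of these, over the 4 hearts, stands for that gene in the counts. That probe was brightest through its signal in the restricted hearts, so the choice itself favours a high Eif3j1 value with restriction. All 13 probes exceeded the blank spots in every heart. Eif3m, whose probe carries the older name Ga17 on this platform, falls outside the rule and is given beside the others; Eif3g was not analysed here.

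eIF3 binds the small ribosomal subunit and helps to bring it the initiator transfer RNA and the messenger RNA, which it reaches through the cap-binding complex. Its core is built from subunits with PCI or MPN domains (Eif3a, c, e, f, h, k, l and m), a plan shared with the lid of the proteasome and with the COP9 signalosome. Eif3b, g and i form a mobile module near the channel through which the messenger enters, Eif3d sits at the edge and can itself touch the cap, and Eif3j attaches loosely beside the decoding site. In heart muscle the rate of initiation is a main control of protein synthesis and of cell growth.

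The hearts came from male C57BL/6J mice, 6 months old, which had been fed freely (ad libitum, AL) or restricted by 40% (caloric restriction, CR) for 3 months. The mice were controls or carried a Sirt1 knockout limited to cardiomyocytes; the sources used here do not give the Cre driver, or the genotype of the controls beyond that word. Cells of the knockout hearts other than cardiomyocytes keep the gene by this design. Of the 2 two-colour arrays, 1 held a pair of control hearts and 1 a pair of knockout hearts, each pair being 1 AL and 1 CR heart. There were thus 4 hearts, 1 per condition. No value has a replicate check, and a fold change describes these hearts only. No test was run: diet over both arrays would leave 1 residual degree of freedom and would be mixed with dye. AL RNA carried Cy5 and CR RNA carried Cy3 on both arrays, so diet and dye cannot be told apart; each genotype had its own array, so genotype and array cannot be told apart either.

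Between 74.0% and 80.7% of the probes were detected in a heart. Positive-control spots printed many times had log2 ratios with SDs between 0.048 and 0.088, which describe spot noise and not mice. Sirt1 itself had a log2 CR over AL value of 0.42 in the control pair and 0.43 in the knockout pair; the position of its probe relative to the deleted part is not known here. Of the cardiomyocyte markers, 9 of 9 measured were detected in all hearts, and their mean on the log2 scale was 12.98 in the control AL heart, 13.13 in the control CR heart, 13.30 in the knockout AL heart and 13.22 in the knockout CR heart. The control AL heart was thus lowest in this mean, which leans on Myh6 (12.45, 13.74, 13.96 and 14.23 in the same order). Tnni3, Myl2, Myl3 and Pln did not have their lowest signal in that heart. Fibroblast markers (7 of 7 detected) averaged 8.45 and 8.77 in the AL hearts of control and knockout and 8.13 in both CR hearts, and 6 of 7 were lower with CR on either array. Markers of endothelium (6 of 6 detected) averaged between 7.67 and 7.96, those of macrophages (6 of 6) between 6.43 and 6.74, those of smooth muscle (5 of 5) between 7.29 and 7.56, and the red blood cell marker measured, Alas2, lay between 6.89 and 7.32. Their part in the eIF3 values was not tested, and in whole tissue fewer cells of a type and less RNA per cell cannot be told apart.

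The starts of 5 eIF3 genes are shown because the first 3 shared a low signal in the control AL heart, Eif3j1 had the highest CR over AL value and Eif3f hardly differed between diets. Each stretch is taken from RefSeq (GRCm38.p6), runs 5′ to 3′ on the gene's own strand and covers 80 bases before the annotated start of transcription and 15 from it. Capitals mark an ETS core (CCGGAAG, or CTTCCGG on the other strand) or a pyrimidine tract at the start. The tract is marked from its C nearest the start, and pyrimidines before that C are left in small letters. The stretches are chr19:60790679-60790773 (minus strand, Eif3a), chr7:126566352-126566446 (minus, Eif3c), chr15:77970810-77970904 (minus, Eif3d), chr2:122028500-122028594 (plus, Eif3j1) and chr7:108934335-108934429 (plus, Eif3f).
Eif3a: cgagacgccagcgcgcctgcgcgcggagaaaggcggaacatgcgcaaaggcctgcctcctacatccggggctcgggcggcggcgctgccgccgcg
Eif3c: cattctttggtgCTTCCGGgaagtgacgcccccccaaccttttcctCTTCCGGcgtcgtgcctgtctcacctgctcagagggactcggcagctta
Eif3d: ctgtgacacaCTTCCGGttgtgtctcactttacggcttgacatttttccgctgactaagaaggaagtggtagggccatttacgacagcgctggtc
Eif3j1: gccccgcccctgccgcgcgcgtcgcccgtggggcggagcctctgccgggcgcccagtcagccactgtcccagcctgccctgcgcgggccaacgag
Eif3f: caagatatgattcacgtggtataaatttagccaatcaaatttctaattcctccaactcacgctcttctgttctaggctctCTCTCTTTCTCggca

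A window of 300 bases around the start (250 before, 50 from it) was searched in 27025 RefSeq entries, among them 8 eIF3 genes. The ETS core, searched on both strands, was present in the windows of Eif3c, Eif3d and Eif3l, or 3 of 8, and in 9.12% of all windows. A pyrimidine tract, meaning a C within 5 bases of the start followed by at least 4 pyrimidines on the gene's strand, was present in Eif3b, Eif3f and Eif3l, or 3 of 8, and in 18.46% of all windows. A tract that begins at the first base of the message is the mark of messengers whose translation follows mTORC1, the growth-signalling kinase. The search was looser than that, and it took the C nearest the annotated start that opened a tract. That C lay at an offset of 0 from the start in Eif3f, 2 in Eif3b and -2 in Eif3l. In Eif3f and Eif3l further pyrimidines lay directly before it, so the offset does not mark where the run of pyrimidines begins. TATAAA on either strand was present in Eif3b and Eif3f (14.16% of all windows), and AAGATGGC, the core of a YY1 site, on either strand in Eif3f (2.88%). The marked motifs do not overlap in the stretches printed. Eif3a and Eif3j1 held none of these 4 motifs in the window. A match describes letters only.

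The first comparison asked how restriction altered the eIF3 messages in control hearts, and the second asked the same in hearts without Sirt1 in their muscle cells. Signals are log2 values after background correction and normalization, and a CR over AL value is a difference of such signals within an array. A gene is counted as apart where it differed by at least 1.5-fold (0.585 on the log2 scale).

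Among the core subunits, Eif3e was at least 1.5-fold higher with CR on both arrays. Eif3e, also known as Int6, belongs to the PCI subunits and connects the complex to the cap-binding scaffold. Its signal on the log2 scale was 9.05 in the control AL heart, 10.05 in the control CR heart, 8.89 in the knockout AL heart and 9.78 in the knockout CR heart. Both CR hearts thus lay above both AL hearts, with the knockout heart slightly below the control heart under either diet. The raw spot intensity was 486.1 (AL) and 1233 (CR) scanner units in the control pair and 409.4 and 894.5 in the knockout pair, where blank spots averaged 32.5 and 74.9 and then 34.9 and 75.6. The CR over AL value was 1.01 in the control pair (2.01-fold, rank 9 from the top of 12658 genes) and 0.90 in the knockout pair (1.86-fold, rank 27 of 12142). The authors' deposited table gives 0.99 and 0.98 for this probe. With the brightness around the spot subtracted, the value was 0.18 in the control pair and 0.81 in the knockout pair; that surrounding brightness was 81.7% (AL) and 90.5% (CR) of the spot's own on the control array. The mouse genome holds several Eif3e pseudogenes, and as the probe sequence was not used here, signal from such copies cannot be separated.

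Eif3a and Eif3c, large scaffold subunits of the core, showed another pattern. The log2 signal of Eif3a was 7.54 in the control AL heart, 8.15 in the control CR heart, 8.47 in the knockout AL heart and 8.55 in the knockout CR heart. Eif3c had 10.34, 11.02, 11.26 and 11.59 in the same order. For both genes the control AL heart stood lowest, the control CR heart came next and both knockout hearts were higher, so the difference by diet was wider in the control pair than in the knockout pair before the surroundings of the spots were subtracted. For Eif3a the CR over AL value was 0.61 (1.53-fold) in the control pair and 0.08 (1.06-fold) in the knockout pair. For Eif3c it was 0.68 (1.61-fold) and 0.33 (1.26-fold). The Eif3c value on the control array depended on the background correction: the brightness around this spot was 95.8% (AL) and 101.7% (CR) of the spot itself, and with it subtracted the value turned to -1.10. On the knockout array that share was 49.2% and 48.8%, and the value was 0.31 after subtraction. For Eif3a the subtraction gave 0.43 in the control pair and 0.46 in the knockout pair, so the contrast between the pairs was absent under that setting for Eif3a and turned for Eif3c. The authors' deposited table gives 0.75 and 0.07 for Eif3a. The cardiomyocyte marker Myh6, a myosin heavy chain, was ordered alike, with 12.45, 13.74, 13.96 and 14.23 in the same hearts. So were Actn2 of the sarcomere (11.87, 12.38, 12.76 and 12.87), Ryr2 (6.97, 7.20, 7.44 and 7.71) and Tnnt2 (15.09, 15.27, 15.37 and 15.33). Tnni3, Tnnc1, Pln, Myl2 and Myl3 of the same list were ordered otherwise. Myl2 (-0.62 and -0.69 for CR over AL) and Myl3 (-0.67 and -0.77) were at least 1.5-fold lower with CR on both arrays. These markers were named after their values were seen. Over the whole marker list, 6 of 9 were higher in the knockout than in the control heart under AL, beside 52.6% of all genes. At least 1.5-fold higher were 2 of them, beside 2.57% of all genes. The part of this list in the Eif3a and Eif3c values was not tested.

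The other core subunits differed little by diet on the control array. Eif3f, an MPN subunit that in muscle links eIF3 to mTORC1, had log2 signals of 10.63 (control AL), 10.62 (control CR), 10.78 (knockout AL) and 10.85 (knockout CR). Eif3h, the other MPN subunit, had 11.58, 11.68, 11.39 and 11.73. The highest and lowest of these lay in knockout hearts for Eif3h, while for Eif3f the knockout hearts lay above both control hearts, an order that turned under AL with median scaling of the channels (-0.06) and under both diets with the local background subtracted (-0.41 under AL, -1.66 under CR). Eif3k, a small subunit at the edge of the core, had 10.79, 10.80, 10.64 and 10.79. Eif3l, its partner there, had 8.89, 8.97, 9.39 and 9.15. CR over AL was -0.01 and 0.07 for Eif3f on the control and knockout arrays, 0.11 and 0.34 for Eif3h, 0.01 and 0.15 for Eif3k, and 0.08 and -0.24 for Eif3l. Of the 11 genes, Eif3l was thus the only 1 below 0 on the knockout array, and its own value stayed below 0 under each of the 6 settings tried. Others joined it under some settings: Eif3b (-0.08), Eif3f (-1.60) and Eif3k (-0.0086) with the local background subtracted, and Eif3i (-0.03) with loess within blocks. Eif3m, outside the rule, had 9.82, 9.85, 9.81 and 9.87, the narrowest range over the hearts of any probe described here, 0.062. Over the 7 core genes of the rule, 6 lay above 0 on either array, beside 51.4% (control) and 50.1% (knockout) of all genes. Their medians were 0.11 (control) and 0.15 (knockout). With the local background subtracted, Eif3c (-1.10), Eif3f (-0.35) and Eif3h (-0.56) lay below 0 on the control array. Eif3f, Eif3k and Eif3l did so on the knockout array.

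Eif3b and Eif3i of the mobile module differed little by diet. Eif3b, which carries an RNA-binding domain and anchors Eif3i, had log2 signals of 8.41 (control AL), 8.52 (control CR), 8.51 (knockout AL) and 8.58 (knockout CR). Eif3i had 11.26, 11.24, 11.02 and 11.05, with both control hearts above both knockout hearts. CR over AL was 0.10 and 0.07 for Eif3b on the control and knockout arrays and -0.02 and 0.03 for Eif3i. Eif3d had 8.12, 8.53, 8.55 and 8.60: the control AL heart stood apart from the other 3, which spanned 0.07. Its CR over AL value was 0.41 (1.33-fold) in the control pair and 0.05 in the knockout pair. With the brightness around the spot subtracted, Eif3d was higher in the knockout heart by 0.95 under AL and 0.81 under CR. The control CR heart thus no longer lay close to the knockout hearts under that setting.

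Eif3j1 had the highest CR over AL value of the family on the control array, but with 1 of its 3 probes. Probe M300020531 had log2 signals of 7.73 (control AL), 8.89 (control CR), 7.91 (knockout AL) and 8.77 (knockout CR), with both CR hearts above both AL hearts. Probe M300008758 had 6.94, 7.10, 7.22 and 7.22, and probe M400000992 had 8.02, 7.99, 7.90 and 8.04. These other probes showed little order by diet. Over the AL hearts M400000992 was on average the brighter, so M300020531 stands for the gene through its CR signals. In raw scanner units, M300020531 gave 179.3 and 555.5 in the control pair and 205.0 and 456.5 in the knockout pair (AL, then CR). M400000992 gave 220.5 and 302.6, then 205.0 and 283.6, and M300008758 gave 94.3 and 168.5, then 122.3 and 169.8. CR over AL was 1.16 (2.24-fold, rank 4 of 12658) and 0.86 (1.81-fold, rank 30 of 12142) for M300020531, 0.16 and 0.01 for M300008758, and -0.02 and 0.14 for M400000992. The authors' deposited table gives 1.35 and 1.02, 0.24 and -0.04, and -0.08 and 0.15 for the same probes. With the surrounding brightness subtracted, M300020531 stood at 0.66 and 0.49.

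The spread between the Eif3j1 probes was itself wide. It was 1.18 on the control array, where the median range over the 131 genes with several probes was 0.14, and no other of these genes had as large a range. On the knockout array it was 0.85 beside a median of 0.13, and 1 other gene had as large a range. Among the 6 genes with 3 probes, Eif3j1 included, the median range was 0.16 on the control and 0.38 on the knockout array, and no other of them had as large a range on either. The sources used here do not give where the probes lie along the gene. The near-identical copy Eif3j2, which the gene table also lists among the older names of Eif3j1, may share signal with any of them.

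**Figure D1:**
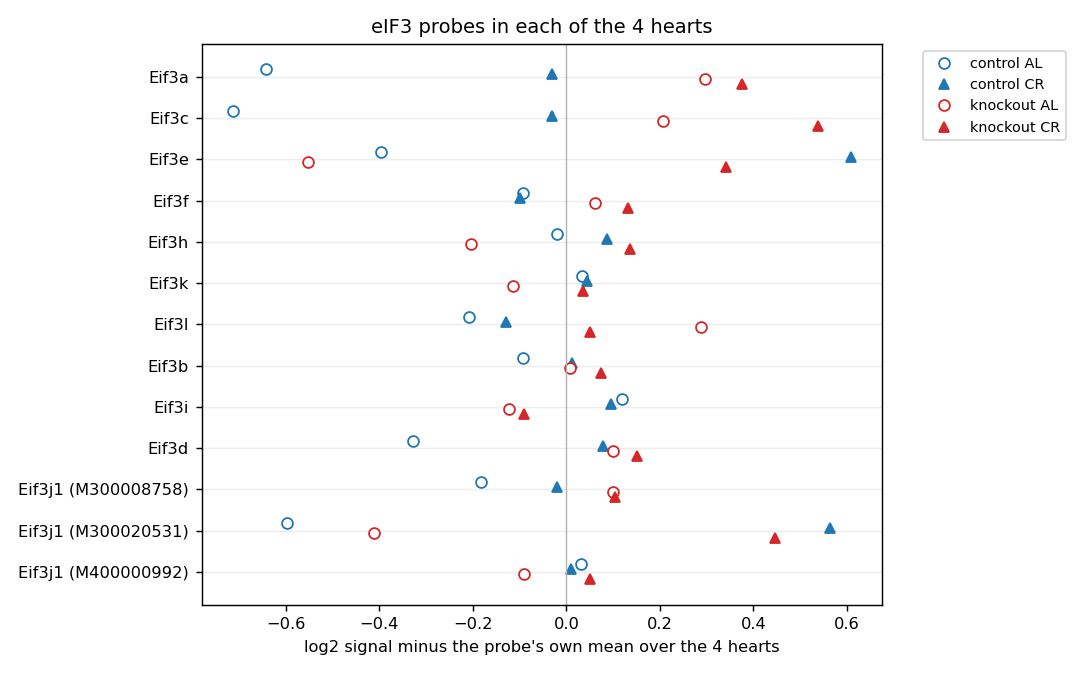
Each of the 13 eIF3 probes in each heart, as log2 signal minus the probe's own mean over the 4 hearts (x axis, log2 units); blue marks are control and red marks knockout hearts, open circles AL and triangles CR, 1 heart per mark. In Eif3e and Eif3j1 probe M300020531 both triangles lie right of both circles, while in Eif3a, Eif3c and Eif3d the control AL circle stands alone at the left.

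Counted together, 4 of 11 eIF3 genes (Eif3a, Eif3c, Eif3e and Eif3j1) were at least 1.5-fold higher with CR on the control array, beside 0.814% of all genes compared. None was 1.5-fold lower, beside 0.34% of all genes, and 9 of 11 lay above 0, beside 51.4%; in the authors' deposited ratios 7 of 11 lay above 0 (49.2% of all genes), with median centring all 11 did (59.0%), and with the local background subtracted 6 did (45.4%). That subtraction left 1 gene, Eif3j1, 1.5-fold higher on the control array and placed Eif3c 1.5-fold lower. On the knockout array 2 of 11 (Eif3e and Eif3j1) were at least 1.5-fold higher, beside 0.758% of all genes, 0 were as far lower, also beside 0.758%, and 10 of 11 lay above 0, beside 50.1%; with the local background subtracted 7 of 11 lay above 0 (46.3% of all genes), Eif3e and Eif3i were 1.5-fold higher and Eif3f was 1.5-fold lower. Nothing is read from these shares, since the family was picked on these same values. The median over the 11 genes was 0.11 in the control pair and 0.08 in the knockout pair, with an all-gene median of 0.00 on either. Over the 11 genes the values ran from -0.02 to 1.16 in the control pair and from -0.24 to 0.90 in the knockout pair. With M300020531 left out, or with the probe brightest in the AL hearts taken for Eif3j1, 3 genes were 1.5-fold higher in the control pair and 1, Eif3e, in the knockout pair.

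**Figure D2:**
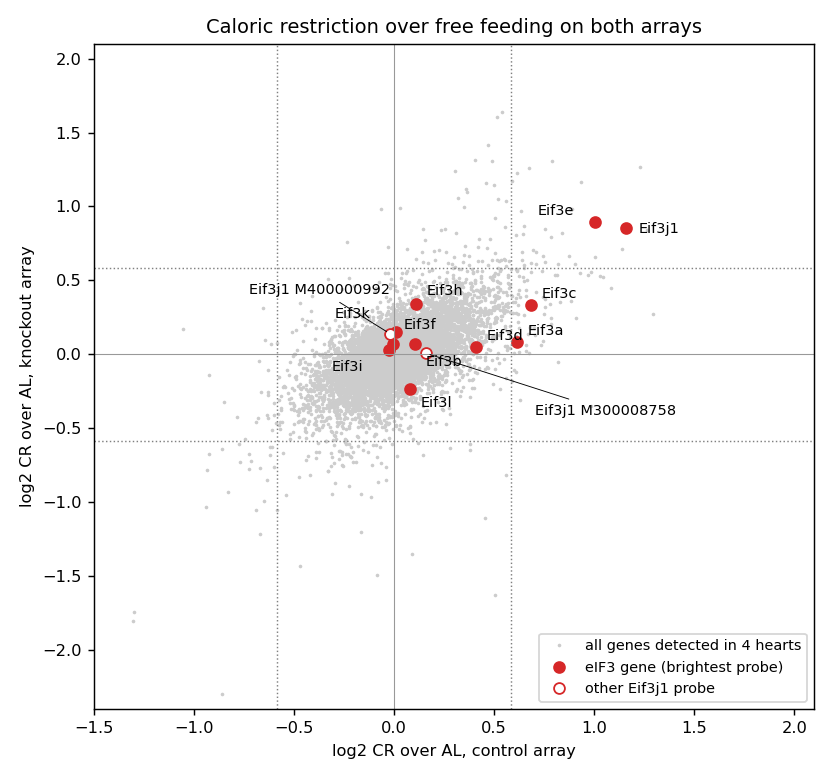
Log2 CR over AL in the control pair (x axis) and in the knockout pair (y axis) for the 11698 genes detected in all hearts (grey), with the brightest probe of each eIF3 gene in solid red and the other Eif3j1 probes as open red circles; dotted lines mark 1.5-fold. Eif3e (1.01 and 0.90) and Eif3j1 (1.16 and 0.86) lie beyond the line on both axes, Eif3a and Eif3c on the control axis only, and both other Eif3j1 probes lie within the central cloud.

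The third comparison subtracted the CR over AL value of control hearts from that of knockout hearts, which asks whether restriction acted differently without Sirt1 in the muscle cells. It uses the same 4 hearts and ratios as the comparisons by diet, so it is no separate evidence. No eIF3 gene differed by 1.5-fold: 0 were higher, beside 0.376% of all genes, and 0 lower, beside 0.513%. In sign, 4 of 11 lay above 0, beside 49% of all genes, and the median was -0.11. The lowest value was that of Eif3a at -0.53, where 0.795% of all genes lay lower, followed by Eif3d at -0.36, Eif3c at -0.35, Eif3l at -0.32 and Eif3j1 at -0.30. Eif3e differed by -0.11. In the authors' deposited ratios the Eif3a difference passed 1.5-fold, at -0.68. With the brightness around the spots subtracted it was 0.03, that of Eif3c turned to 1.41 and that of Eif3d was -0.15, and 4 genes were 1.5-fold higher and 1 lower, beside 3.26% and 2.19% of all genes. Before that subtraction Eif3h was highest at 0.23, and Eif3b (-0.04), Eif3f (0.08), Eif3i (0.05) and Eif3k (0.14) lay close to 0. After it Eif3i stood at 2.17, Eif3h at 0.89, Eif3e at 0.64 and Eif3f at -1.24, with Eif3b at -0.05 and Eif3k at -0.12.

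The remaining comparisons set knockout against control hearts under each diet. Before this, each spot's mean log2 signal over both channels was brought to the same distribution on both arrays. The single channels were not matched to each other. Under AL, 2 of 11 genes were at least 1.5-fold higher in the knockout heart, Eif3a at 0.94 (1.92-fold) and Eif3c at 0.92 (1.89-fold), beside 2.57% of all genes. None was as far lower, beside 1.78%, and 7 of 11 lay above 0, beside 52.6%. Eif3l (0.50) and Eif3d (0.43) followed, and Eif3i (-0.24) and Eif3h (-0.18) were lowest. Under CR, 0 of 11 were 1.5-fold higher (1.43% of all genes) and 0 as far lower (1.08%), and 7 of 11 lay above 0 (51%). Eif3c was highest there, at 0.57 (1.48-fold), with Eif3a next at 0.41, and Eif3e lowest at -0.27. The medians were 0.15 under AL and 0.06 under CR. The Eif3c values again rest on the control array's spot that did not stand out from its surroundings. With the brightness around the spots subtracted, 8 of 11 genes were 1.5-fold higher in the knockout heart under AL and 8 of 11 under CR, beside 9.67% and 11.1% of all genes. Under AL 1 gene and under CR 2 were 1.5-fold lower, beside 9.54% and 10.4% of all genes, and Eif3e turned to 0.78 and 1.42. These comparisons share their hearts with the CR over AL values, and the control AL heart enters both the control CR over AL value and the AL comparison.

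The control AL heart was the lowest of the 4 for 6 of 11 eIF3 genes (Eif3a, b, c, d, j1 and l), and for 29.1% of the 11698 genes detected in all hearts. For Eif3e, Eif3h, Eif3i and Eif3k the knockout AL heart was lowest, and for Eif3f the control CR heart, by 0.0069. The gap from the control AL heart up to the next heart was 0.68 for Eif3c, 0.61 for Eif3a and 0.41 for Eif3d, and the other 3 hearts spanned 0.57, 0.41 and 0.07. That gap was smaller for Eif3j1 (0.19), Eif3b (0.10) and Eif3l (0.08). With the brightness around the spots subtracted, the control CR heart lay below the control AL heart for Eif3c (-1.10). Under that setting Eif3d was higher in the knockout heart by 0.95 under AL and by 0.81 under CR. The range over the 4 hearts had a median of 0.48 in the eIF3 genes and of 0.23 in all genes, whose 95th percentile was 0.76.

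Likeness was measured as the Euclidean distance between log2 signals over the 4 hearts after each gene's mean was taken away, against 11697 other genes. Nearest to Eif3j1 were BC002059 (distance 0.12), Sucla2 (0.18), a subunit of the succinate-CoA ligase of the citric acid cycle, and Plscr2 (0.26), a phospholipid scramblase; Eif3e had rank 4 at 0.27. Nearest to Eif3e were Sucla2 (0.26), Eif3j1 (0.27) and Nampt (0.30), the rate-limiting enzyme of NAD salvage. The log2 signal of Sucla2 was 10.21 in the control AL heart, 11.22 in the control CR heart, 10.37 in the knockout AL heart and 11.03 in the knockout CR heart. For Nampt it was 9.40, 10.03, 9.16 and 10.12, so for both genes the CR hearts lay above the AL hearts. Eif3j1 and Eif3e were picked because both lay high with CR, so nothing is read from their closeness to each other. Eif3j1 stands here by probe M300020531 alone, whose pattern its other probes did not share. With 4 points per gene the distances describe these hearts only.

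The eIF3 values were set beside lists of the other parts of the translation machinery, described by counts and medians. Factors that pick the start site and carry the initiator transfer RNA (eIF1, eIF2, eIF5 and others) had 6 of 9 genes above 0 in the control pair and 4 of 10 in the knockout pair, with medians of 0.05 and -0.02. None was 1.5-fold apart by diet. Eif5b, which joins the ribosomal subunits, was furthest apart on the control array (0.57, with 0.33 on the knockout array), followed by Eif5, which activates the GTPase of eIF2 (0.40 and -0.23), and Mcts1 was lowest on the knockout array (-0.14 and -0.38). The eIF2B subunits, which recharge eIF2, had 4 of 5 above 0 on either array, with medians of 0.12 and 0.16. Among them Eif2b1 (0.42 and 0.16), Eif2b3 (0.23 and 0.17) and Eif2b5 (0.08 and 0.20) were furthest apart.

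Factors at the cap and the poly(A) tail, where eIF3 meets the messenger, had 8 of 13 above 0 in the control pair and 9 of 13 in the knockout pair, with medians of 0.19 and 0.18. Eif4g1, the scaffold that binds eIF3, was 1.5-fold higher with CR on the control array at 0.68 and stood at 0.56 on the knockout array. Its log2 signal was 7.74 in the control AL heart, 8.42 in the control CR heart, 8.17 in the knockout AL heart and 8.73 in the knockout CR heart, so both CR hearts lay above both AL hearts. Paip2, which takes the poly(A)-binding protein away from the messenger, had 0.49 and 0.50.

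Regulators of these steps were listed separately. The eIF4E-binding proteins and the mTORC1 pathway had 9 of 16 above 0 and 8 of 15, with medians of 0.08 and 0.02. Rps6kb1, the S6 kinase, was furthest apart on the control array (0.40 and 0.18), then Rheb, the GTPase that activates mTORC1 (0.30 and 0.10), and on the knockout array Eif4ebp1 (-0.01 and 0.27) and Akt1s1 (-0.13 and -0.20). The eIF2 kinases and the integrated stress response, which limit initiation, had 8 of 10 above 0 and 5 of 10, with medians of 0.07 and 0.00. Of these, 2 were 1.5-fold higher on the control array: Chac1, which degrades glutathione (0.74 and 0.56), and Asns, asparagine synthetase (0.63 and 0.02). Ddit3 was lower on the knockout array (0.02 and -0.24).

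Later steps of translation held no gene 1.5-fold apart by diet. Elongation factors had 5 of 8 above 0 and 5 of 9, with medians of 0.14 and 0.04. Eef1a2, the muscle form of the factor that delivers transfer RNA, had 0.40 on both arrays, with Eef1b2 at 0.29 and 0.34 and Eef2, the translocase, at 0.26 and 0.38. Termination and recycling factors had 4 of 6 above 0 and 2 of 6, with medians of 0.16 and -0.03. Etf1, which reads stop codons, had 0.31 on both arrays, with Abce1 at 0.19 and -0.02 and Pelo at 0.16 and -0.26.

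In the complexes that share eIF3's architecture no gene was 1.5-fold apart by diet. The COP9 signalosome had 6 of 9 above 0 on either array, with medians of 0.18 and 0.05, and Cops4 (0.33 and 0.35), Cops5 (0.33 and 0.22) and Cops3 (0.32 and 0.30) were furthest apart. The proteasome lid had 8 of 8 above 0 in the control pair and 6 of 8 in the knockout pair, with medians of 0.25 and 0.05. Psmd12 (0.48 and 0.03) and Psmd3 (0.35 and 0.05) were furthest apart on the control array and Psmd7 (0.26 and 0.19) and Psmd6 (0.31 and 0.15) on the knockout array. The control AL heart was the lowest of the 4 for 8 of 8 lid genes, as it was for Eif3a, Eif3c and Eif3d. For all genes detected in all hearts that share was 29.1%. That heart was also lowest for 3 of 5 eIF2B subunits and 8 of 15 genes of the mTORC1 list. In each remaining list it was lowest for 22.2% to 40% of the genes. Under AL, all 8 lid genes were higher in the knockout heart, beside 52.6% of all genes. Their median was 0.42, with Psmd12 at 0.94 and Psmd3 at 0.81, close to the 0.94 and 0.92 of Eif3a and Eif3c.

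**Figure D3:**
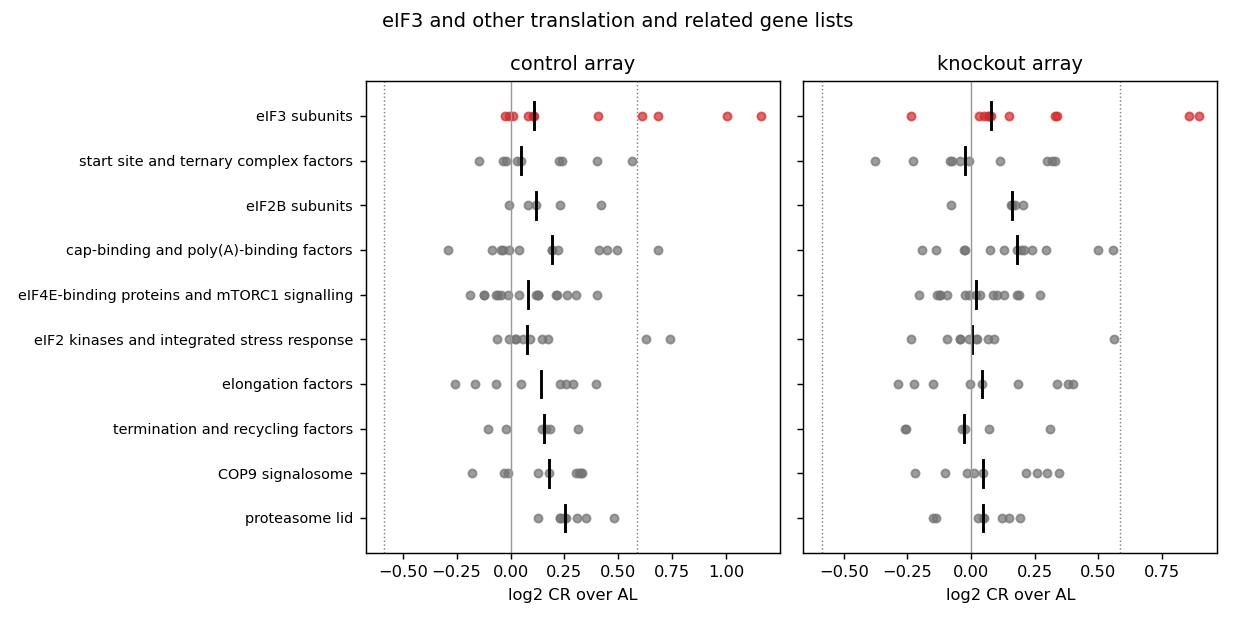
Log2 CR over AL (x axis) of each gene of the eIF3 family (red) and of the other lists (grey), on the control array (left) and the knockout array (right); black bars are list medians and dotted lines mark 1.5-fold. The eIF3 medians (0.11 and 0.08) lie among those of the other lists, while Eif3e and Eif3j1 lie right of every grey point on both arrays. The family was picked because these genes lay high on these same values, so nothing is read from their position. Only the brightest probe of Eif3j1 is shown.

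Each eIF3 value was recomputed under other ways of treating the spots. Under all 6 settings, M300020531 stayed between 0.66 and 1.36 on the control array and between 0.49 and 1.02 on the knockout array. Eif3e stayed between 0.81 and 0.98 on the knockout array and between 0.18 and 1.11 on the control array. Eif3a stayed between 0.43 and 0.76 and Eif3d between 0.26 and 0.52 on the control array. Subtracting the brightness around the spot moved the family most, and it moved Eif3f on the knockout array to -1.60 and Eif3i there to 1.91, where that brightness was 93.1% (Eif3f, CR) and 96.6% (Eif3i, AL) of the spot.

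**Figure D4:**
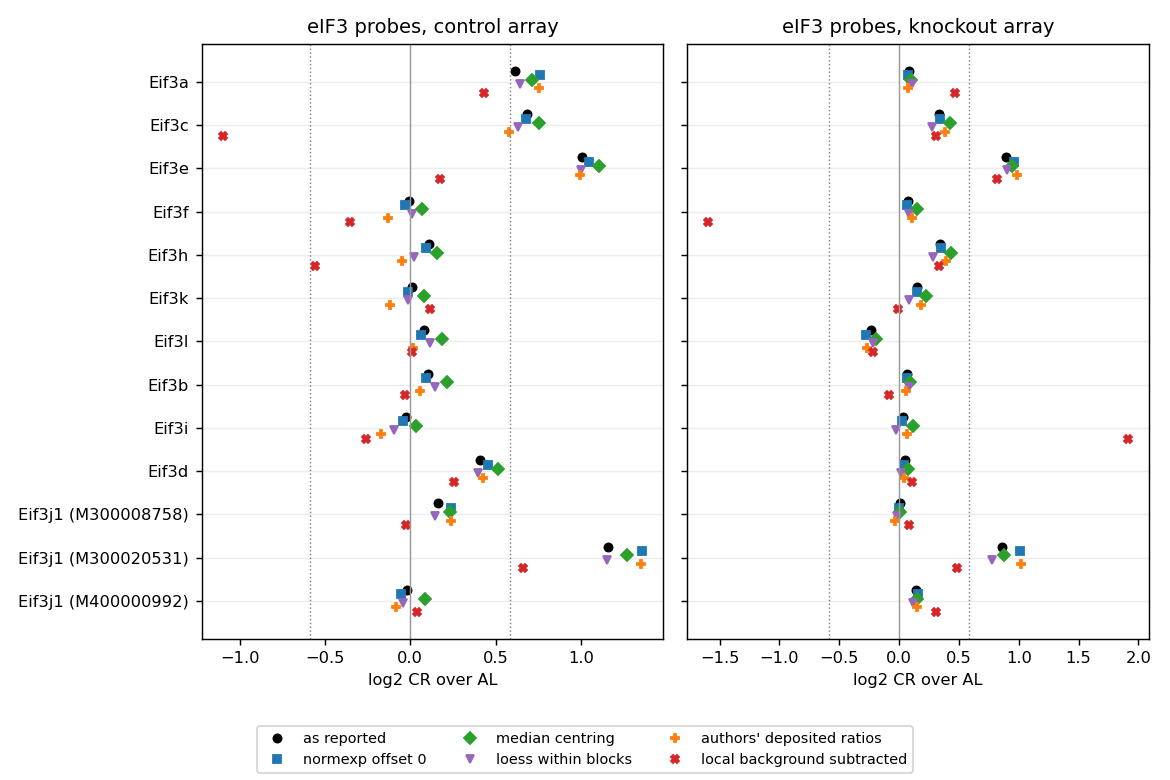
Log2 CR over AL (x axis) of each eIF3 probe on the control array (left) and the knockout array (right; the x scales differ) under 6 settings, 1 mark per setting; dotted lines mark 1.5-fold. The settings lie together for most probes except where the local background was subtracted (red crosses), as for Eif3c (-1.10, left) and Eif3i (1.91, right).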

How the data were processed

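RNA of 4 mouse hearts was measured on 2 arrays with 23473 gene probes. The deposited scanner files hold each spot's intensity (median brightness) at both wavelengths and the brightness of its surroundings, per the file headers. Per the labels, the authors deposited a table of log2 CR over AL ratios. Rebuilding it from the spots as log2 of the CR signal over the AL signal, each minus the blank-spot mean, minus a constant, gave 17405 of 17405 and 16555 of 16555 values to within 0.001. Its column medians were -2.885e-06 and 8.079e-05, so its scale, centring and direction were settled. The sources used here do not give the scanner software or a genome build.

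Intensities were corrected with normexp (offset 50) without the local background, a choice made after the data were seen, and normalized by loess within arrays (limma 3.58.1, R 4.3.3); channels were compared between arrays after Aquantile. Control spots and marked spots (1 and 3) had weight 0. A spot was detected where it exceeded the blank mean, trimmed by 5% at each end, by 2 SD. Of 16631 probes with a symbol, 12622 had a current symbol, 3947 an older synonym and 62 no match (RefSeq, GRCm38.p6). The number of arrays limits the precision. Where probes of a gene differed, its brightest probe was taken. The alternatives tried were local background subtraction, the authors' ratios, offset 0, median centring, loess within blocks, no detection filter and other probe choices. The scripts were checked on simulated data.

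All eIF3 probes are named. From each translation or related list (not the cell-type markers), genes at least 1.5-fold apart by diet on either array and those furthest from 0 on each array (the first 2) are named, and for Eif3j1 and Eif3e the nearest 3 genes. Members and lists were chosen with earlier results of these data known.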

Additional observations from a re-analysis of the deposited data

Results flagged for a closer look

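Of the 11 eIF3 genes, 3 had CR over AL values of opposite sign in the control and knockout hearts. Eif3l stood at 0.08 in control and -0.24 in knockout hearts, a difference of -0.32 on the log2 scale. Eif3f stood at -0.0069 and 0.072 (difference 0.0786) and Eif3i at -0.024 and 0.030 (difference 0.0542); repeated positive-control spots had an SD of up to 0.088. The differences were not tested, because each condition has 1 heart.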

How the results depend on the processing

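No paired analysis was possible because each array holds 1 heart per diet and the labels give no replicate numbers; the slide as a block was not run, since slide and genotype coincide. The count of eIF3 genes at least 1.5-fold apart was 4 (control array), 2 (knockout array), 0 (difference of responses), 2 (AL) and 0 (CR). With the local background subtracted these counts were 2 (1 higher), 3 (2 higher), 5 (4 higher), 9 (8 higher) and 10 (8 higher), and the medians moved from 0.11 to 0.0074 (control array), from 0.08 to 0.31 (knockout array), from 0.15 to 0.79 (AL) and from 0.06 to 0.76 (CR); Eif3c on the control array turned to -1.10. The knockout count was 1 with the mean of a gene's probes, with the probe brightest in the AL hearts and without M300020531. The difference count was 1 with the authors' deposited ratios, with median centring and with offset 0, and the CR count was 1 with offset 0. Median centring gave a control median of 0.21, and median scaling an AL median of 0.015. The cause was not tested. Of the values of single probes, local background subtraction left 8 of 65 within the spot noise, loess within blocks 63, offset 0 58, median centring 38 and the authors' ratios 20 of 39. At 1.5-fold, 8.78% of all genes were higher on the control array in the authors' ratios, beside 0.814% here. Loess within blocks, the AL-brightest probe and the omission of M300020531 were chosen after seeing the data. Of the values at least 1.5-fold apart, none but that of Eif3c on the control array changed sign.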
